A study of Mus musculus with 18 samples.

Results

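IL4 is a cytokine of type 2 immune responses, and the data described here are its effect on the transcriptome of wild type mouse macrophages grown from bone marrow. The comparison was defined by its samples and not by any measured value: 3 libraries of wild type cells treated with IL4 against 3 libraries of untreated wild type cells, 6 of the 18 libraries of the study. All 12514 genes that passed a filter on low counts were tested, of 21954 genes in the table. The study also holds wild type cells treated with IFN and cells with a knockout of L13a, named L13a KO in the labels, in the same 3 conditions. Those libraries enter 2 comparisons here: 3 wild type IFN libraries, and 3 untreated and 3 IL4 libraries labelled as knockout. In 1 of these, knockout IL4 9, the level of the targeted gene was in the wild type range, and the genotype comparison is given with and without it. L13a belongs to the large subunit of the ribosome and is encoded by Rpl13a. The type of interferon, the dose and length of treatment, the strain, age and sex of the mice, and the way the knockout was made are not given in the sources used here. The labels number the untreated libraries 1, 2 and 3, the IFN libraries 4, 5 and 6 and the IL4 libraries 7, 8 and 9, and these numbers are kept below. Whether replicate libraries are from different mice is not stated, so the p-values measure the spread between these libraries, which may be in part technical.

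Macrophages are tissue phagocytes whose state depends on the signals around them. IL4 binds a receptor made of the IL4 receptor alpha chain and the common gamma chain. The receptor's JAK kinases then phosphorylate STAT6, which enters the nucleus and activates its target genes. The resulting state, called alternative activation, is known for arginase, chitinase-like and resistin-like proteins, lectin receptors and a metabolism that uses fatty acids. Interferon gamma leads to a different state with high antigen presentation and antimicrobial defence, so the 2 cytokines are often studied side by side.

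The 6 libraries held between 20532544 and 28477342 expected counts per library. Levels are given below as CPM, counts relative to library size after TMM scaling. The cells expressed the defining macrophage genes in all 6 libraries. Adgre1, which encodes the surface protein F4/80, was at 1711, 1995 and 2008 CPM in untreated libraries 1, 2 and 3 and 1741, 1541 and 1937 CPM in IL4 libraries 7, 8 and 9, and Csf1r, the receptor for the growth factor M-CSF, was at 3727, 3317 and 3365 and 3265, 2881 and 3699 CPM. Neither gene passed the test for a change (edgeR adjusted p = 0.848 and 0.866). In a principal component analysis of the 6 libraries the first component, with 49.9% of the variance, separated all IL4 from all untreated libraries. The second, with 25.2%, placed untreated 1 and IL4 7 apart from the other 4. Transcripts of Y-linked genes were present in 3 of the 6 libraries (untreated 1, IL4 7 and IL4 8), so the treatment groups differ in this respect. Untreated libraries 2 and 3 were more alike than any other pair of the same group among the 18, as their chi-square statistic divided by its degrees of freedom was 6.00 against 51.5 to 184 in the other pairs. Their difference still exceeded sampling noise, which does not tell separate mice from separate preparations of the same cells. They were kept as separate libraries, and the count of calls with them summed is given below. Summed levels of fibroblast and stromal markers were lower after IL4, at 582 to 612 CPM untreated and 144 to 288 CPM after IL4. In the fit of all 18 libraries, none of the 12 tested markers passed edgeR's test (0 at an unadjusted p under 0.05). DESeq2 also called 0, although all 12 had a log2 fold change below 0. The part of stromal cells in the results was not tested beyond a fit with this level as a covariate. In bulk samples, fewer cells of a type and less RNA per cell cannot be told apart.

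Treatment with IL4 changed 903 genes, 7.22% of those tested, at an adjusted p under 0.05 by edgeR's quasi-likelihood test with Benjamini-Hochberg adjustment. Of these, 541 rose (4.32% of genes tested) and 362 fell (2.89%), and 2442 genes had an unadjusted p under 0.05. A change of at least 2-fold was measured for 294 of the rising and 225 of the falling genes, and at least 4-fold for 123 and 83. The 3 IL4 libraries lay outside the range of the 3 untreated libraries for all 541 rising genes and 358 of the 362 falling ones, beside 28.5% of all genes tested. Among all tested genes the median log2 fold change was -0.0079, and 49.1% were above 0. On the authors' TPM scale, with limma on log2 of TPM plus 1, the median of all genes was -0.105 and the split turned to 374 higher and 537 lower, so 41.1% of calls were higher against 59.9% with TMM. The count of calls was 540 without untreated 3, 551 without untreated 2 and 561 without IL4 8, and 543 with untreated 2 and 3 summed as 1 library.

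**Figure D1:**
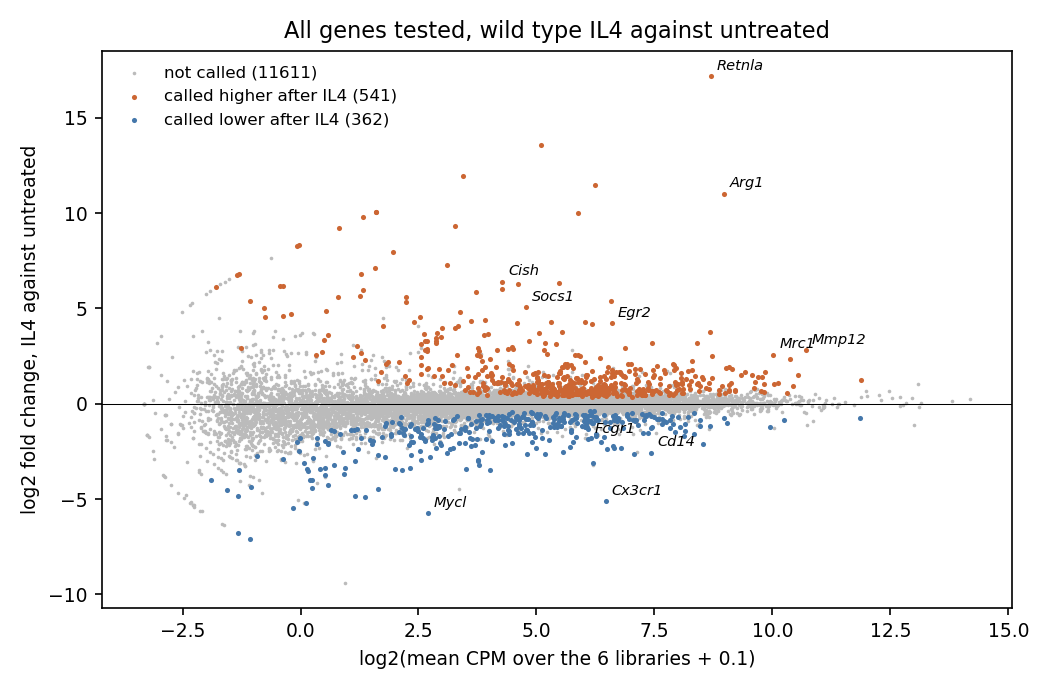
Log2 fold change of IL4 against untreated (vertical axis) against the log2 mean CPM over the 6 libraries plus 0.1 (horizontal axis), 1 point per gene tested. Orange points are the 541 genes called higher, blue points the 362 called lower and grey points those not called; the largest rises lie far above the largest falls.

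The genes with the largest rises went from no or almost no reads to high levels, and several are classical products of alternatively activated macrophages. Retnla (chr16:48842551-48844461 in GENCODE vM21 on GRCm38), which encodes the secreted resistin-like molecule alpha, had 0 counts in all 3 untreated libraries and 332, 285 and 1868 CPM in IL4 libraries 7, 8 and 9. Every IL4 library was above every untreated one, with IL4 9 the highest. Measured against 3 counts over the untreated group, Retnla was at least 23049-fold higher (edgeR adjusted p = 0.00181). Arg1 (chr10:24915221-24927484), arginase 1, was at 0, 0.710 and 0.778 CPM untreated and 1377, 395 and 1234 CPM after IL4. The groups did not overlap, IL4 8 was the lowest of the treated libraries, and the log2 fold change with its standard error was 11.03 ± 1.00 (n = 3 libraries per group, edgeR adjusted p = 1.14e-05). Chil3, a secreted chitinase-like protein also called Ym1, was at 0.128, 0 and 0 CPM untreated and 203, 41.2 and 209 CPM after IL4, again lowest in IL4 8 but far above the untreated range (log2 fold change 11.45 ± 1.49, adjusted p = 2.05e-04). Chil3 has a near-identical neighbour, Chil4, so the division of reads between them is uncertain.

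Among the other large rises, Pdcd1lg2 (chr19:29410919-29471161), the PD-1 ligand PD-L2, had 0 counts untreated and 19.9, 12.1 and 32.9 CPM after IL4, at least 600.0-fold higher (adjusted p = 2.00e-05). Rnase2a, a ribonuclease of the eosinophil-associated family whose close relatives make its reads uncertain, went from 0 counts to 41.3, 33.2 and 130.5 CPM, at least 1896-fold higher. Mgl2, a galactose-type C-type lectin, was at 0.160, 0.177 and 0 CPM untreated and 56.3, 125 and 172 CPM after IL4, so that every treated library was above every untreated one (log2 fold change 9.99 ± 0.94, adjusted p = 8.52e-05). Il4i1, a secreted L-amino acid oxidase, was at 2.47, 0.577 and 0.177 CPM and 71.0, 104 and 88.9 CPM (log2 fold change 6.31 ± 0.74, adjusted p = 8.52e-05). Genes better known from other tissues also stood among the 14 largest rises. The sodium channel gene Scn3a had 2 counts in all untreated libraries together and 12.1, 12.3 and 32.8 CPM after IL4, a ratio of 789 with a 95% counting interval of 218 to 6519. The tight junction gene Cldn11 rose 312-fold (85.8 to 2581) and the adaptor gene Scimp 152-fold (51.7 to 742), and these intervals cover counting error only. The remaining members were Tuba8 and the homeobox gene Msx3, each at least 158-fold higher from 0 counts, the corepressor gene Hr, and Cish. Msx3 was no longer called without any untreated library or IL4 8 or 9 (adjusted p up to 0.0795 by edgeR).

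**Figure D2:**
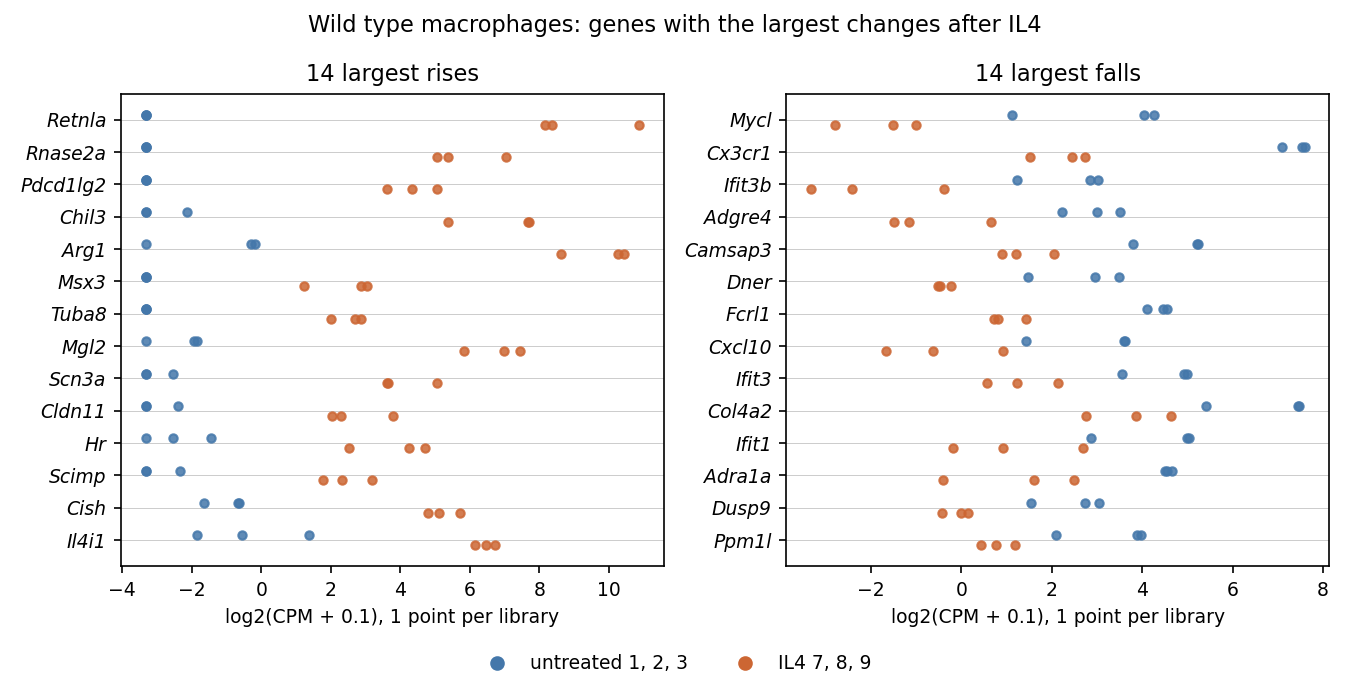
Log2 of CPM plus 0.1 in each library (horizontal axis) for the 14 largest rises (left) and the 14 largest falls (right) among called genes whose higher group averaged 5 CPM or more and whose groups did not overlap. Each point is 1 library, blue untreated and orange IL4; a point at the left edge of the left panel is a library with 0 counts.

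The promoters of these genes were searched for the spacing that STAT6 is known to prefer, TTC followed after any 4 bases by GAA, which reads the same on both strands. In RefSeq promoters of GRCm38.p6, from 250 bases before to 50 bases after the start, it was found in 36 of 419 matched rising genes (8.59%), 15 of 287 matched falling genes (5.23%) and 644 of 9667 matched genes tested (6.66%), beside 2164 of all 27025 genes of the promoter table (8.01%) and 2284 of its 32851 promoters (6.95%). A match is a run of letters and not a measured binding site. The shares were not compared by a test, and that of the rising genes was close to that of all genes of the promoter table. The promoters of 4 matching genes among those named for rising are shown as examples, in order of adjusted p. These genes were picked for holding the motif, so its presence in them is no result. The choice left out part of the genome, so they need not be the first 4 of all matching genes. Capitals mark the motif. It begins 82 bases before the start in Pdcd1lg2 (chr19:29410669-29410968, + strand), 127 in Itgax (chr7:128129300-128129599, + strand), 238 and 225 in Lgals3 (chr14:47373610-47373909, + strand) and 145 in Retnla (chr16:48842359-48842658, + strand).
Pdcd1lg2: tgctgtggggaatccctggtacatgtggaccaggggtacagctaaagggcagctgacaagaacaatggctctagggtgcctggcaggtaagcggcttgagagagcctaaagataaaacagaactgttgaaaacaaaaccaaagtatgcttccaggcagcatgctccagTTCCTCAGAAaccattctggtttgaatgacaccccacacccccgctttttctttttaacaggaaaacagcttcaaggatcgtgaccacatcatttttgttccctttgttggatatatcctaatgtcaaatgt
Itgax: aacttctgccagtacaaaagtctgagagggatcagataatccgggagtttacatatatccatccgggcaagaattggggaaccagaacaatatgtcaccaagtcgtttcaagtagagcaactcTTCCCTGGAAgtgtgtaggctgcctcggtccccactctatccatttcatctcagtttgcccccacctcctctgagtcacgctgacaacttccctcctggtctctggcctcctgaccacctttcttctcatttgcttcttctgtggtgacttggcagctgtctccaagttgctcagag
Lgals3: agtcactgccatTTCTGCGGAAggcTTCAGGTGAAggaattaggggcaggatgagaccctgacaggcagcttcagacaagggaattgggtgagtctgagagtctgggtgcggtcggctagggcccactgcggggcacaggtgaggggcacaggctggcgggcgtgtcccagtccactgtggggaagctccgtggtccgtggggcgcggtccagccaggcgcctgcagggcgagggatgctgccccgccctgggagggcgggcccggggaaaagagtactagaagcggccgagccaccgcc
Retnla: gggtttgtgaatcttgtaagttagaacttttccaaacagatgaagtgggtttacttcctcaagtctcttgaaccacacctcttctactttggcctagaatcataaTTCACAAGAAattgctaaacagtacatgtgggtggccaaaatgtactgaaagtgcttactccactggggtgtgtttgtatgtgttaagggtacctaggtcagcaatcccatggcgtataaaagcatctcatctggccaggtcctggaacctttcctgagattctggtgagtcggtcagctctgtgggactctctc

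The 14 largest falls were smaller in size than the 14 largest rises and included receptors, a MYC family gene and interferon-inducible genes. Cx3cr1 (chr9:119901616-120069879), the receptor for fractalkine, was at 136, 185 and 193 CPM in untreated libraries 1, 2 and 3 and 6.55, 2.76 and 5.35 CPM in IL4 libraries 7, 8 and 9. All treated libraries were far below all untreated ones, and the log2 fold change was -5.12 ± 0.59 (adjusted p = 7.85e-05). Fcrl1, an Fc receptor-like protein best known from B cells, was at 17.1, 23.2 and 21.8 CPM and 2.59, 1.56 and 1.65 CPM, with no overlap (log2 fold change -3.41 ± 0.29, adjusted p = 7.18e-06). Mycl, a relative of the transcription factor MYC, was at 2.09, 16.3 and 19.1 CPM and 0.0431, 0.251 and 0.401 CPM, so untreated 1 was the lowest of its group but still above the treated range (log2 fold change -5.73 ± 1.08, adjusted p = 0.00370). Further falls had log2 fold changes of -3.50 for Adgre4, an adhesion receptor of the F4/80 family, -3.47 for the microtubule minus-end protein gene Camsap3, -2.94 for the adrenergic receptor gene Adra1a, -2.77 and -2.77 for the phosphatase genes Dusp9 and Ppm1l, and -3.42 for the Notch ligand-like gene Dner. The other 5 of the 14 were Ifit3b, Ifit3 and Ifit1, induced by interferon, the chemokine gene Cxcl10 and the collagen gene Col4a2. The call of Col4a2 was lost without untreated 2 or 3 or IL4 7 or 8 (edgeR adjusted p up to 0.0716), Cxcl10 without untreated 2 or 3 or any IL4 library (up to 0.176), Ifit1 without untreated 2 or 3 or IL4 7 or 8 (up to 0.148), Ifit3 without IL4 7 or 8 (up to 0.0564) and Ifit3b without untreated 2 or 3 or IL4 7 or 8 (up to 0.12).

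Of the receptor and signalling genes of the IL4 pathway, 4 of 21 tested members rose and none fell, and none of the 4 encodes a receptor chain. Of all genes tested 4.32% rose and 2.89% fell, the shares to set beside the counts of this and the later lists. Cish, an SH2 protein that restrains JAK-STAT signalling, was at 0.546, 0.222 and 0.530 CPM untreated and 27.4, 52.6 and 34.2 CPM after IL4. The groups were far apart and the spread was small, with a log2 fold change of 6.41 ± 0.38 (adjusted p = 1.66e-07). Socs1, which inhibits JAK kinases, was at 1.32, 1.2 and 2.19 CPM and 28.5, 53.6 and 76.5 CPM, highest in IL4 9 (log2 fold change 5.06 ± 0.49, adjusted p = 2.00e-05). The kinase gene Jak2 was at 31.9, 34.6 and 36.9 CPM and 97.2, 111 and 84.3 CPM, and the adaptor gene Dok2 at 55.8, 68.9 and 70.3 CPM and 180.2, 241 and 267 CPM, both without overlap (log2 fold changes 1.5 ± 0.19 and 1.82 ± 0.24). The receptor chain and its transcription factor did not pass the test. Il4ra was at 133, 95.8 and 92.2 CPM untreated and 96.6, 83.3 and 81.9 CPM after IL4, which overlap (adjusted p = 0.471), and Stat6 at 266, 211 and 214 and 256, 197 and 197 CPM (adjusted p = 0.866). The median log2 fold change of the 21 members was 0.27.

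Transcription regulators of the IL4 state rose in 12 of 32 tested members and fell in 1, with a median log2 fold change of 0.66. Irf4, a regulator of alternative activation, was at 2.92, 2.17 and 2.12 CPM untreated and 39.9, 36.0 and 60.9 CPM after IL4 (log2 fold change 4.24 ± 0.50, adjusted p = 8.76e-05). Egr2, a zinc finger factor known to act in alternatively activated cells, was at 15.5, 6.39 and 7.07 CPM and 172, 184 and 193 CPM, nearly equal in the 3 treated libraries (log2 fold change 4.24 ± 0.60, adjusted p = 3.89e-04). In both genes every treated library was above every untreated one. Nfil3, a basic leucine zipper factor, had the lowest p of the list, at 4.94, 3.95 and 5.09 CPM untreated and 50.5, 71.2 and 63.5 CPM after IL4 (log2 fold change 3.72 ± 0.27, adjusted p = 7.47e-07). Batf3 and Ppargc1b, a coactivator of mitochondrial genes, rose by 5.87 ± 0.65 and 3.13 ± 0.34 on the log2 scale. Chosen after their values were seen, Klf4 was at 14, 18.1 and 19.4 CPM untreated and 88.7, 103 and 108 CPM after IL4 (log2 fold change 2.54 ± 0.37), and Maf, a regulator of macrophage differentiation and the 1 member that fell, at 381, 385 and 385 and 163, 186 and 206 CPM (-1.05 ± 0.24). Neither gene's groups overlapped. Myc, at 34.6, 35.1 and 35.6 CPM and 50.7, 105 and 62.2 CPM, and the nuclear receptor gene Pparg, at 35.5, 44.6 and 47.1 and 47.9, 62.7 and 65.5 CPM, were higher in each treated library than in any untreated one without passing the test (adjusted p = 0.131 and 0.360). Maf was no longer called without IL4 7 or 8 (adjusted p up to 0.0547 by edgeR).

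Surface receptors of alternative activation had the highest share of rising calls among lists with at least 5 tested members. Of 26 tested members 13 were up and 0 down, with a median log2 fold change of 1.85. The lists were chosen with earlier results of these data known, so this ranking is a description and not a test. Mrc1, the mannose receptor CD206 (chr2:14229392-14332057), was at 309, 284 and 295 CPM untreated and 1753, 1622 and 1931 CPM after IL4. Replicates differed little within each group and the groups were well apart (log2 fold change 2.58 ± 0.38, adjusted p = 5.58e-04). Flt1, a receptor for vascular endothelial growth factor, was at 2.15, 7.76 and 3.43 CPM and 169.9, 160.5 and 233 CPM (log2 fold change 5.42 ± 0.69, adjusted p = 1.69e-04). Cdh1, E-cadherin, an adhesion protein of macrophages that fuse, was at 0.321, 0.488 and 0.919 CPM and 32.3, 48.8 and 32.2 CPM (log2 fold change 6.02 ± 0.64, adjusted p = 4.54e-05). For Flt1 and Cdh1 the lowest treated library was more than 10 times the highest untreated one. Itgax, the integrin CD11c whose promoter is shown above, was at 106, 28.5 and 32.4 CPM and 711, 974 and 606 CPM, with untreated 1 the highest of its group (log2 fold change 3.78 ± 0.53, adjusted p = 3.98e-04). Clec10a, the lectin encoded beside Mgl2, was at 7.06, 7.28 and 10.1 CPM and 26.1, 25.6 and 51.8 CPM (log2 fold change 2.08 ± 0.44, adjusted p = 0.00767). Its sequence resembles that of Mgl2, so the division of reads between the pair is uncertain.

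Secreted effectors rose in 7 of 24 tested members and fell in none, with a median of 0.24. Besides Arg1, Chil3, Retnla and Chil4 they were Igf1 and the chemokine genes Ccl22 and Ccl24. Igf1, an insulin-like growth factor, was at 419, 451 and 470.2 CPM untreated and 1109.9, 1194 and 1291 CPM after IL4, with no overlap (log2 fold change 1.42 ± 0.24, adjusted p = 0.00171). Ccl22, a ligand of the chemokine receptor CCR4, was at 1.12, 3.55 and 4.77 CPM and 9.01, 34.2 and 28.2 CPM. It was lowest in IL4 7 among the treated libraries (log2 fold change 2.92 ± 0.61, edgeR adjusted p = 0.00729). Ccl17, another ligand of CCR4, was low throughout, at 0, 0.222 and 0.389 CPM and 0.604, 1.81 and 1.56 CPM, and did not pass the test (adjusted p = 0.289). Per transcript length, on the authors' TPM scale, the mean levels after IL4 were 2927 ± 3132 TPM for Retnla, 1199 ± 684 for Arg1, 172 ± 112 for Chil3 and 1003 ± 95.9 for Igf1 (SD, n = 3). The SDs are wide relative to the means for Retnla and Chil3. Chosen after its values were seen, Mmp12, the macrophage elastase, was the 1 called member of 20 matrix metalloproteinases and inhibitors, at 615, 311 and 321 CPM untreated and 1977, 5034 and 1748 CPM after IL4 (log2 fold change 2.81 ± 0.42, adjusted p = 5.84e-04). The call of Ccl24 was lost without untreated 1 or 3 or IL4 8 or 9 (edgeR adjusted p up to 0.122) and Chil4 without any untreated library or IL4 7 or 9 (up to 0.0848).

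All calls in the next 4 lists, of metabolic genes, were rises, beside 4.32% of all genes tested that rose. In arginine and polyamine metabolism 3 of 19 members rose: Arg1, the cationic amino acid transporter gene Slc7a2, at 5.10, 9.27 and 8.24 CPM untreated and 132, 118 and 159 CPM after IL4 (log2 fold change 4.18 ± 0.40, adjusted p = 2.00e-05), and Ass1, argininosuccinate synthase, at 8.86, 9.72 and 12.5 and 33.7, 110.2 and 48.6 CPM (log2 fold change 2.63 ± 0.55). Neither gene's groups overlapped, and IL4 8 was high for Ass1. Nos2, which makes nitric oxide from arginine, had 1 count in each group of 3 libraries. In glycolysis 5 of 24 members rose and none fell, namely the glucose transporter gene Slc2a1, the phosphofructokinase gene Pfkp, Pfkfb4, Hk3 and Pgam1. Pfkp was at 70.1, 66.3 and 71.2 CPM and 174, 244 and 191 CPM, with the groups clearly apart (log2 fold change 1.55 ± 0.12, adjusted p = 2.24e-06). In oxidative phosphorylation 2 of 76 members rose, Sdha of complex II (0.54 ± 0.11) and Cyc1 of complex III (0.71 ± 0.20). This share is below the 4.32% of all genes tested. Of the 76, 74 had a log2 fold change above 0, with a median of 0.34. Their summed level overlapped between the groups, at 6217 to 7964 CPM untreated and 7664 to 10727 CPM after IL4. Members that vary together between libraries are not separate observations. In fatty acid oxidation and lipid handling 3 of 29 rose, among them Echs1 and Etfa, with log2 fold changes of 0.66 and 0.65. Cyc1 was no longer called without any untreated library or IL4 8 or 9 (adjusted p up to 0.159 by edgeR), Hk3 without untreated 2 or 3 or IL4 7 or 8 (up to 0.0979), Pgam1 without any untreated library or IL4 8 (up to 0.121), Echs1 without untreated 2 or 3 or IL4 7 (up to 0.0688) and Etfa without any untreated library or IL4 8 or 9 (up to 0.106).

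Iron handling genes rose in 4 of 17 members, the transferrin receptor gene Tfrc, Hfe, Aco1 and Slc48a1. Tfrc was at 91.2, 98.5 and 92.0 CPM untreated and 372, 315 and 470.2 CPM after IL4, without overlap (log2 fold change 2.04 ± 0.28, adjusted p = 3.23e-04). Eicosanoid enzymes rose in 3 of 17 members: Tbxas1, thromboxane synthase, at 136, 80.1 and 70.0 CPM and 374, 277 and 319.9 CPM (log2 fold change 1.76 ± 0.31, adjusted p = 0.00193), the phospholipase gene Pla2g4a (1.08 ± 0.21) and Ephx1 (2.04 ± 0.47). Every treated library was above every untreated one for Tfrc and Tbxas1. Cholesterol synthesis had 1 of 24 members called, Dhcr7, up by 1.09 ± 0.15. Among glutathione and NRF2 targets 1 of 25 was called, the cystine transporter gene Slc7a11 (2.05 ± 0.51). In both the cholesterol and the glutathione list the share of rises was near the 4.32% of all genes tested that rose. The hypoxia response had 1 rise, Slc2a1, and 3 falls, Bnip3, Ndrg1 and Mxi1, of 18. Of 46 cell cycle genes none was called, and their median log2 fold change was -0.04. An unadjusted p under 0.05 was found for 1 of them, and DESeq2 called 0. The call of Slc48a1 was lost without any untreated library or any IL4 library (edgeR adjusted p up to 0.168), Ephx1 without untreated 2 or 3 (up to 0.0769), Ndrg1 without untreated 1 or IL4 8 or 9 (up to 0.0662), Mxi1 without untreated 2 or 3 or IL4 7 (up to 0.0689) and Slc7a11 without any untreated library or IL4 8 (up to 0.0988).

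**Figure D3:**
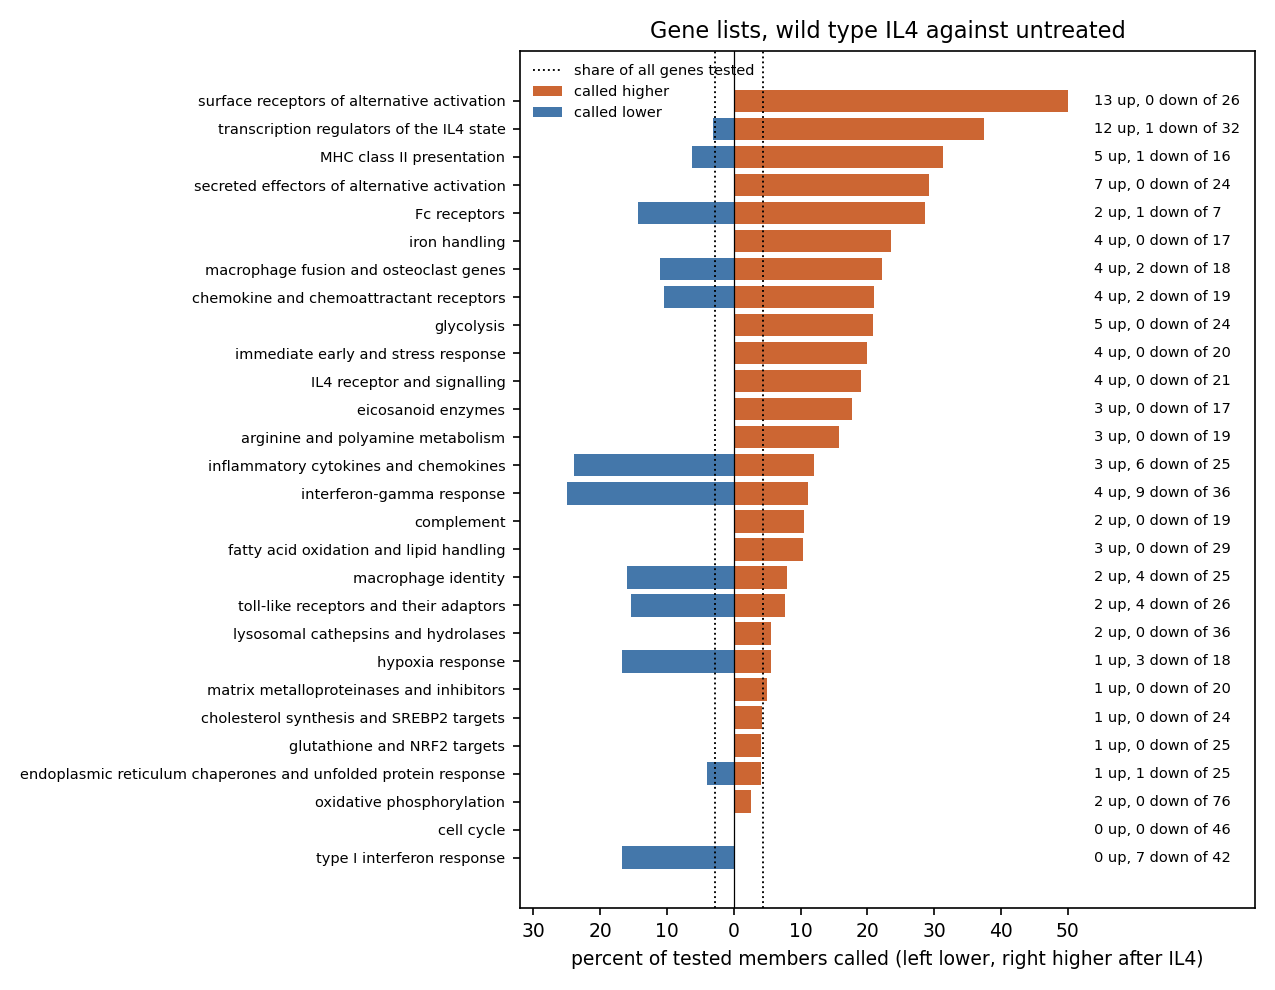
Percent of the tested members of each gene list called higher (orange, right) and lower (blue, left) after IL4, with the counts at the right edge. Dotted lines mark the shares of all genes tested, 4.32% higher and 2.89% lower; surface receptors of alternative activation reach 13 of 26, and the type I interferon response has only lower calls, 7 of 42.

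Genes of the type I interferon response mostly had lower values after IL4, and those of the interferon gamma response changed in both directions, beside 2.89% of all genes tested that fell. In the type I interferon list 7 of 42 tested members fell and none rose, 39 had a log2 fold change below 0, and the median was -0.99. Irf9, a subunit of the ISGF3 transcription factor, was at 59.5, 58.7 and 56.3 CPM untreated and 30.5, 17.3 and 35.9 CPM after IL4, without overlap (log2 fold change -1.06 ± 0.24, adjusted p = 0.0115). Ifit3, which restrains viral RNA, was at 11.6, 30.5 and 31.5 CPM and 1.38, 2.26 and 4.33 CPM (log2 fold change -3.20 ± 0.71, adjusted p = 0.0108). Untreated 1 was the lowest of the untreated libraries for Ifit3, as it was for Cxcl10, Ifit1 and Ifit3b, so the untreated level itself varied. The count of called members varied with the libraries: 1 without IL4 8, 2 without IL4 7, 3 without untreated 3, 4 without untreated 2 and 12 without untreated 1, and DESeq2 called 16. In the interferon gamma list 9 of 36 members fell and 4 rose, 20 had a log2 fold change below 0, and the median was -0.30, or -0.33 with genes at 0 counts set to their bound. The 4 that rose were Socs1, Psmb10, Ciita and Cd274. The 9 that fell included Fcgr1, a high-affinity receptor for IgG, at 117, 107 and 96.9 CPM and 33.6, 20.7 and 35.0 CPM (log2 fold change -1.84 ± 0.29, adjusted p = 8.88e-04), and the guanylate binding protein gene Gbp8, at 1.22, 1.06 and 1.80 CPM and 0.302, 0.402 and 0.312 CPM. Falling calls numbered 4 without untreated 2, untreated 3, IL4 7 or IL4 8 and with the fibroblast marker level as a covariate, and 12 without IL4 9. Cd274 was no longer called without untreated 2 or 3 or IL4 7 (adjusted p up to 0.0684 by edgeR).

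MHC class II genes, which present antigen to T cells and are known to respond to interferon gamma, rose in part after IL4. Of 16 tested members 5 rose, Ciita, Cd74, H2-DMa, H2-DMb1 and H2-Ab1, and 1 fell, the costimulatory ligand gene Cd86, with a median log2 fold change of 0.65. Ciita, the transactivator of the class II genes, was at 3.95, 6.12 and 5.87 CPM untreated and 22.8, 21.1 and 36.4 CPM after IL4 (log2 fold change 2.33 ± 0.49, adjusted p = 0.00729). Cd74, the invariant chain, was at 473, 412 and 426 CPM and 1402, 2026 and 3246 CPM (log2 fold change 2.35 ± 0.40, adjusted p = 0.00144). H2-DMa, which helps load peptides, was at 22.5, 28.1 and 27.0 CPM and 72.4, 148 and 187 CPM (log2 fold change 2.40 ± 0.28, adjusted p = 8.69e-05). In Cd74 and H2-DMa the treated libraries differed from each other by more than the untreated ones, with IL4 7 lowest and IL4 9 highest, and no groups overlapped. Fc receptors moved in both directions: beside the fall of Fcgr1, the inhibitory receptor gene Fcgr2b was at 26.6, 35.4 and 40.8 CPM untreated and 288, 225 and 429.6 CPM after IL4 (log2 fold change 3.20 ± 0.45, adjusted p = 3.93e-04), and Fcgr3 rose by 0.99 ± 0.20. These were 3 of 7 tested members. The call of H2-Ab1 was lost without any untreated library or IL4 8 or 9 (edgeR adjusted p up to 0.124) and Cd86 without any untreated library or IL4 7 or 8 (up to 0.161).

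Several receptors that sense microbial products fell. Of 26 toll-like receptors and adaptors 4 fell, Tlr2, Tlr5, Tlr9 and the co-receptor gene Cd14, and 2 rose, Ticam1 and the barely detected Tlr11. Cd14, a co-receptor for lipopolysaccharide, was at 213, 329 and 341 CPM untreated and 31.1, 47.6 and 70.4 CPM after IL4 (log2 fold change -2.57 ± 0.45, adjusted p = 0.00215). Tlr2, a receptor for bacterial lipoproteins, was at 121, 210.4 and 223 CPM and 25.6, 21.9 and 63.8 CPM (log2 fold change -2.31 ± 0.37, adjusted p = 0.00106). Both genes were lower in every treated library than in any untreated one. Among inflammatory cytokines and chemokines 6 of 25 members fell and 3 rose. Tnf, a central inflammatory cytokine, was at 31.1, 28.2 and 30.5 CPM and 8.11, 12.5 and 8.83 CPM, with tight replicates and no overlap (log2 fold change -1.61 ± 0.25, adjusted p = 7.93e-04). The chemokine gene Cxcl16 was at 336, 379 and 381 CPM and 133, 124 and 219 CPM (-1.2 ± 0.21) and the cytokine gene Il18 at 5.20, 6.26 and 7.81 and 3.15, 2.71 and 1.87 CPM (-1.31 ± 0.27). The 3 that rose were the monocyte chemokine genes Ccl2 and Ccl7 and the early response gene Ier3, all highest in IL4 8. None of the 3 was called without IL4 8, and 1 was called without untreated 1, untreated 2 or untreated 3.

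Receptors for chemokines and other attractants rose in 4 of 19 members, Cxcr2, Ccr1, Ltb4r1 and P2ry6, and fell in 2, Cx3cr1 and Cxcr3. Cxcr2, a receptor best known from neutrophils, was at 0.0963, 0 and 0.141 CPM untreated and 2.54, 7.29 and 3.70 CPM after IL4 (log2 fold change 5.67 ± 0.90, adjusted p = 8.87e-04). P2ry6, a receptor for extracellular nucleotides, was at 203, 203 and 201 CPM and 309, 366 and 359 CPM, a small change with little spread (log2 fold change 0.77 ± 0.12, adjusted p = 8.03e-04). Genes of macrophage fusion and osteoclasts rose in 4 of 18 members, Ocstamp, Cdh1, Atp6v0d2 and Itgb3, and fell in 2, Tnfrsf11a, the receptor RANK, and Myo10. Ocstamp, a membrane protein needed for cell fusion, was at 3.11, 8.56 and 7.46 CPM and 90.0, 154 and 130.0 CPM (log2 fold change 4.30 ± 0.55, adjusted p = 1.89e-04). Atp6v0d2, a proton pump subunit, was at 167, 106 and 106 CPM and 721, 723 and 688 CPM (log2 fold change 2.49 ± 0.38, adjusted p = 7.35e-04). For both genes the groups were well apart. Dcstamp, another fusion protein, was at 10.2, 16.7 and 18.9 CPM and 18.4, 66.2 and 36.2 CPM, which overlap, and just missed the threshold (adjusted p = 0.0551). Itgb3 was no longer called without untreated 2 or 3 (adjusted p up to 0.0667 by edgeR) and Myo10 without untreated 2 or 3 or IL4 8 or 9 (up to 0.0852).

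Of 25 genes of macrophage identity 2 rose, Lgals3 and Cebpa, and 4 fell, Cd14, Fcgr1, Maf and Cx3cr1. Lgals3, galectin 3, was at 2219, 2265 and 2242 CPM untreated and 4116, 5997 and 5813 CPM after IL4 (log2 fold change 1.24 ± 0.21, adjusted p = 0.00162), and its promoter is shown above. Lyz2, lysozyme, was at 12108, 10677 and 10767 CPM and 6186, 3532 and 5785 CPM, without overlap but not past the threshold (adjusted p = 0.243). Immediate early and stress genes rose in 4 of 20 members, Jun, Jund, Atf3 and Hsph1, with log2 fold changes between 0.88 and 1.27. Among 36 lysosomal cathepsins and hydrolases 2 rose, among them Ctsz (1.10 ± 0.23). Complement genes had 2 rises of 19, the integrin chain genes Itgax and Itgb2. Chaperones and the unfolded protein response had 1 rise, Pdia4, and 1 fall, Atf6, of 25. Rises in the lysosomal and chaperone lists were near the share of all genes tested that rose, 4.32%, and 2.89% of all genes tested fell. The call of Cebpa was lost without untreated 2 or 3 or IL4 9 (edgeR adjusted p up to 0.0624), Itgb2 without untreated 2 or 3 or IL4 7 or 8 (up to 0.155), Pdia4 without any untreated library or IL4 8 or 9 (up to 0.127) and Atf6 without untreated 2 or 3 or IL4 8 or 9 (up to 0.0866).

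Markers of other cell types were examined because a culture can hold them. Adipocyte and erythroid markers were absent or below the filter, with 0 of 7 tested in each list. Of 6 bone-forming cell markers tested 0 were called, although 5 had a log2 fold change below 0 (median -1.06). DESeq2 called 1 of them lower and limma on log2 TPM plus 1 called 3. The summed level of that list overlapped, at 926 to 1251 CPM untreated and 769 to 1457 CPM after IL4. Endothelial markers were 2 up and 1 down of 6: Pecam1 was at 2.15, 2.09 and 2.62 CPM untreated and 21.6, 29.0 and 35.8 CPM after IL4 (log2 fold change 3.65 ± 0.45, adjusted p = 1.24e-04), Vwf at 64.1, 40 and 37.5 and 259, 162 and 176 CPM (2.08 ± 0.47), and Kdr at 8.70, 10.7 and 9.90 and 2.50, 2.06 and 2.99 CPM (-1.95 ± 0.54). The markers thus moved in both directions, and 4 of the 6 had a log2 fold change below 0 (median -1.45). Their summed level, of which Vwf was the largest part, was 51.3 to 81.2 CPM untreated and 195 to 284 CPM after IL4. Siglecf, a marker of eosinophils and alveolar macrophages, was 1 of 2 eosinophil markers tested and rose by 2.52 ± 0.61. The other 6 of 8 were below the filter, and Epx and Prg2 had 0 counts in every wild type library. The summed level of the eosinophil list was 16.3 to 17.9 CPM untreated and 46.4 to 62.9 CPM after IL4. Cd24a rose by 1.46 ± 0.33 as 1 of 6 dendritic cell markers tested, with 5 of 11 below the filter. Cxcr2 was 1 of 2 neutrophil markers tested, with 9 of 11 below the filter. Col1a1, a fibroblast collagen, was at 184, 323 and 311 CPM and 60.6, 98.2 and 126 CPM, lower in every treated library. It did not pass the test in the fit of all libraries (edgeR adjusted p = 0.326). A fit of only the 6 libraries compared called it lower (log2 fold change -1.52). The part of such cells in the changes of other genes was not tested. Vwf was no longer called without untreated 2 or 3 (adjusted p up to 0.065 by edgeR), Kdr without any untreated library or any IL4 library (up to 0.142), Siglecf without untreated 2 or 3 or IL4 8 or 9 (up to 0.0931) and Cd24a without untreated 1 or 2 or IL4 8 or 9 (up to 0.0628).

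The IL4 state was then set against the IFN state of the same cells, which shows where the IL4 response differs from that to the other cytokine. Untreated cells cancel in this comparison, and it shares the IL4 libraries with the one above, so only the values of each are given. By the same test 2567 genes (20.5%) differed, 1138 (9.09%) higher after IL4 and 1429 (11.4%) lower. The largest differences towards IL4, among genes of at least 5 CPM, were Retnla, Mgl2, Ear2, Scn3a, Rnase2a and Cldn11. Retnla had 0 counts in all 3 IFN libraries and was at least 15921-fold higher after IL4, Mgl2 at least 2206-fold and the ribonuclease gene Ear2 at least 916-fold. Towards IFN they were the chemokine gene Cxcl9, Gbp10, Gbp4, Gbp2b, Slfn1 and the GTPase gene Iigp1. Cxcl9 had 0 counts in all IL4 libraries and 678, 339.8 and 2380.2 CPM in IFN libraries 4, 5 and 6, at least 23064-fold lower after IL4. Guanylate binding protein genes are close copies of each other, so their separate values are uncertain.

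Several genes lay on opposite sides of the untreated level under the 2 cytokines, and others were above it under both. Mrc1, at 309, 284 and 295 CPM untreated, was at 1753, 1622 and 1931 CPM after IL4 and 34.2, 56.6 and 32.6 CPM after IFN (log2 difference of IL4 against IFN 5.43 ± 0.44, adjusted p = 3.84e-07). Igf1 was at 67.9, 97.9 and 80.1 CPM after IFN (log2 difference 3.87 ± 0.27), Atp6v0d2 at 43.3, 21.6 and 27.4 CPM (4.53 ± 0.42) and Mmp12 at 56.6, 52.2 and 26.5 CPM (6.02 ± 0.49), below the untreated level in each IFN library of all 3 genes and above it in each IL4 library. Fcgr1 showed the reverse order, with 773, 752 and 1355 CPM after IFN (log2 difference -5.01 ± 0.33, adjusted p = 4.98e-08), as did Tnf with 128, 110.2 and 104 CPM (-3.54 ± 0.27). Among the genes higher in both states, Socs1 reached 151, 282 and 318 CPM after IFN, above all IL4 libraries (log2 difference -2.24 ± 0.41, adjusted p = 8.71e-04). Cd74 reached 6514, 5342 and 9289.6 CPM after IFN (-1.66 ± 0.39) and Ciita 249, 168 and 188 CPM (-2.91 ± 0.49). H2-DMa reached 392, 455 and 508 CPM (-1.73 ± 0.28). After IL4, Cd74, Ciita and H2-DMa thus stood between untreated and IFN levels. Of the 16 tested members of the class II list, 11 were called lower after IL4 than after IFN and 0 higher. Jak2 (122, 106 and 94.7 CPM after IFN) and Ocstamp (138, 89.0 and 64.5 CPM) did not differ past the threshold between IL4 and IFN, with log2 differences of -0.14 ± 0.19 and 0.36 ± 0.48 (adjusted p = 0.681 and 0.689). Cx3cr1 was low in both, at 5.05, 10 and 5.12 CPM after IFN. Il4ra was at 389, 454 and 317 CPM after IFN, above the untreated and IL4 libraries (log2 difference of IL4 against IFN -2.15 ± 0.20, adjusted p = 1.74e-06).

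**Figure D4:**
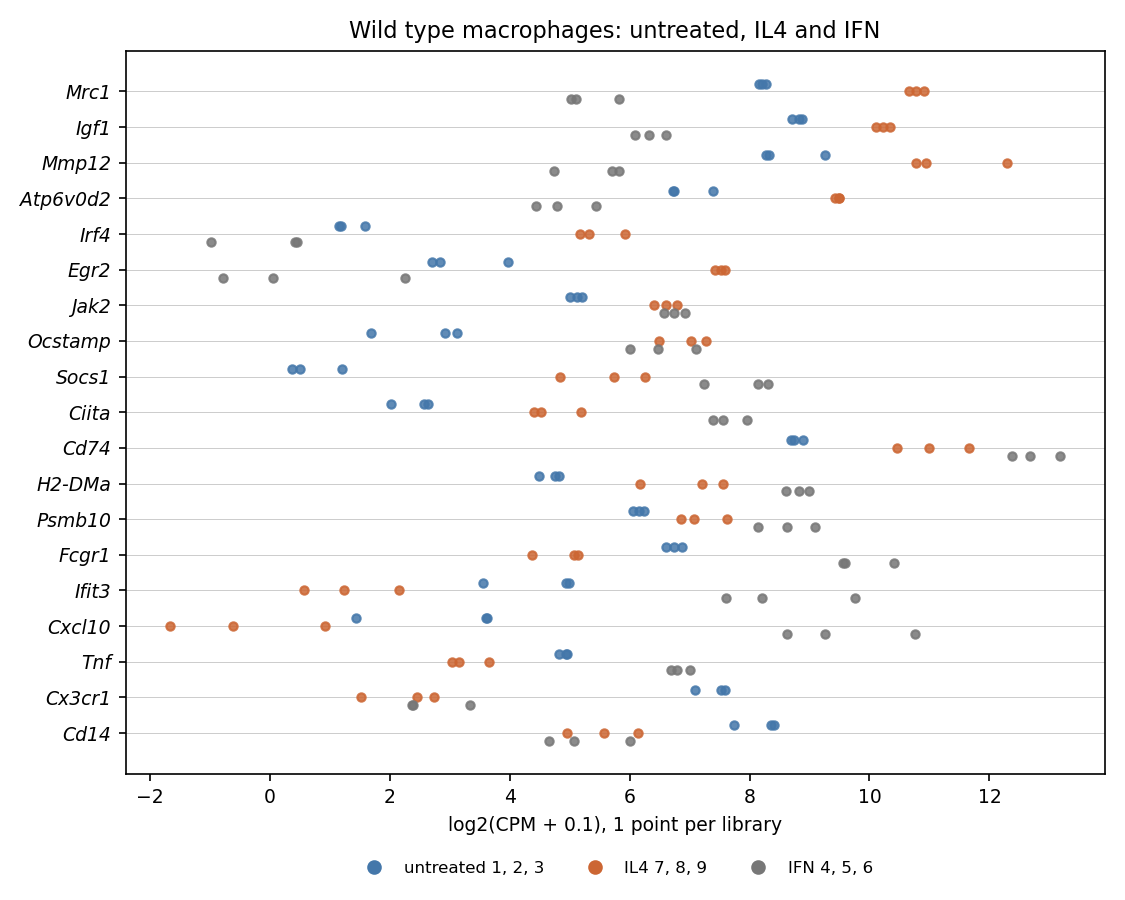
Log2 of CPM plus 0.1 (horizontal axis) of 19 genes in wild type libraries, 1 point per library, untreated blue, IL4 orange and IFN grey. Mrc1, Igf1, Mmp12 and Atp6v0d2 lie highest after IL4 and lowest after IFN. Ciita, Cd74 and H2-DMa lie above the untreated libraries in both states and highest after IFN, and Cx3cr1 and Cd14 are low in both.

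The same treatment was applied to macrophages with the L13a knockout. Rpl13a, the gene named by the knockout, was at 617, 745 and 746 CPM in untreated and 598, 743 and 867 CPM in IL4-treated wild type libraries, with no change past the threshold (adjusted p = 0.962). In the libraries labelled knockout, numbered as in wild type, it was at 156, 201 and 401 CPM untreated and 206, 333 and 606 CPM after IL4. The library labelled knockout IL4 9 was thus within the range of the wild type IL4 libraries, against its label, while the other 5 were below every wild type library. In the libraries labelled knockout 1058 genes (8.45%) were called after IL4, and 691 (5.44%) without IL4 9 and 592 (4.65%) without untreated 2. Of the 541 genes that rose in wild type, 540 had the same sign in the libraries labelled knockout and 419 were called there in the same direction, and of the 362 that fell, 356 had the same sign and 258 were called. Without the library labelled knockout IL4 9 these counts were 539 and 344 for the rising and 357 and 188 for the falling genes. None was called in the opposite direction, with or without that library. The median log2 fold change of the rising genes was 1.08 in wild type and 0.94 in the libraries labelled knockout (0.96 without IL4 9), and of the falling genes -1.22 and -1.13 (-1.09 without IL4 9). The wild type values chose the genes. Same-numbered libraries of the genotypes had correlated deviations from their group means (0.0417 to 0.597 over 9 pairs), so the values under the knockout label are not independent of that choice, and the counts are a description.

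The difference between the genotypes was tested as an interaction. No gene passed the threshold (0%), with or without the library labelled knockout IL4 9, and DESeq2 called 1, the predicted gene Gm20431. An unadjusted p under 0.05 was found for 189 genes (169 without knockout IL4 9). That number ranged from 104 without knockout untreated 2 to 394 without knockout IL4 7. The 189 were a smaller share of the 12514 genes tested than the 0.05 expected if no gene differed, and the reason was not tested. A missed threshold does not show that the responses were equal. Retnla rose by 17.64 in the libraries labelled knockout and 17.19 in wild type in the fitted log2 values, which depend on a prior where untreated libraries have 0 counts. Arg1 rose by 11.28 and 11.03, Mrc1 by 2.51 and 2.58, Cish by 5.87 and 6.41, and Cx3cr1 had -5.38 and -5.12. Chil3 had a smaller fitted value under the knockout label (7.09 against 11.45, a difference of -4.36 ± 1.96, adjusted p = 1). Gbp8 and Il18, which fell in wild type, had -0.39 and 0.05 under the knockout label, differences of 1.62 ± 0.40 and 1.36 ± 0.38 that also missed the threshold (adjusted p = 1 and 1). Without IL4 9 the knockout-labelled values were 17.00 for Retnla, 10.59 for Arg1, 2.43 for Mrc1, 5.89 for Cish and -5.16 for Cx3cr1, and the differences were -4.27 ± 2.09 for Chil3, 1.59 ± 0.44 for Gbp8 and 1.40 ± 0.40 for Il18 (all adjusted p = 1).

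**Figure D5:**
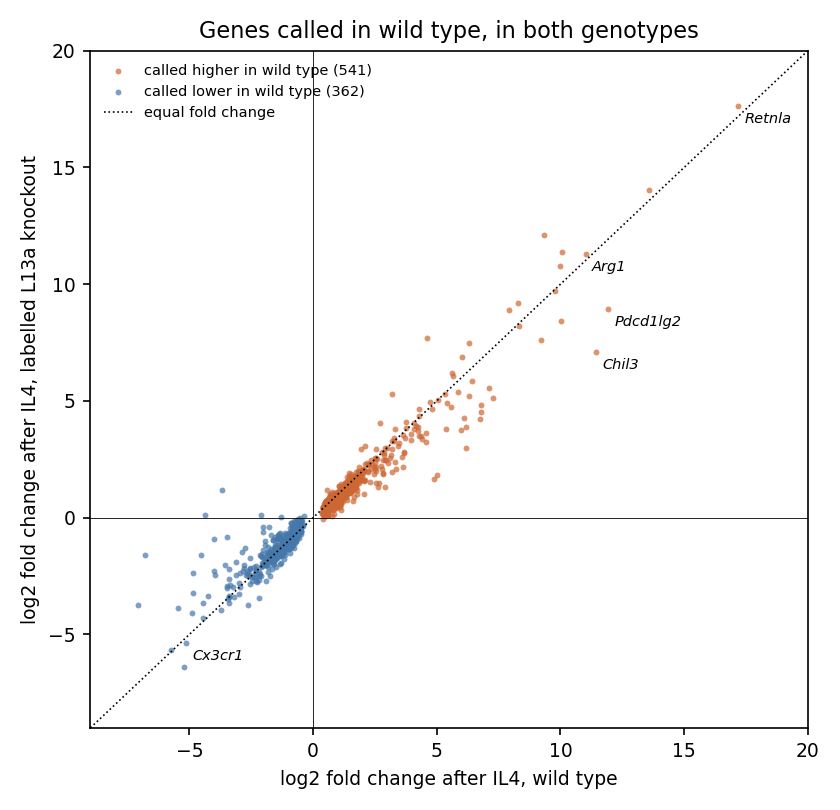
Log2 fold change after IL4 in the libraries labelled L13a knockout (vertical axis) against wild type (horizontal axis) for the 903 genes called in wild type, 1 point per gene, orange for rises and blue for falls. The dotted line marks equal fold changes; 540 of 541 rising and 356 of 362 falling genes have the same sign under both genotype labels.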

How the data were processed

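RNA was sequenced from 18 libraries of mouse bone marrow derived macrophages; 6 of them, wild type untreated and IL4, are the main subject. The authors' table holds, per the file headers, RSEM expected counts, TPM, and a signal of median-normalized TPM, which equals TPM times 1 factor per library. Per the submitters' processing notes the tools were Bowtie 0.12.8 and RSEM 1.2.3 with build mm10. Messenger RNA was selected by poly-T beads, and the labels' protocols name both a directional and a non-directional kit, so reads of overlapping antisense genes cannot be told apart. Of the deposited expected counts 21.5% were not whole, and all were rounded. Columns assigned to no sample numbered 0. Genes were placed with GENCODE vM21 (21856 of 21954 matched); promoters came from RefSeq on GRCm38.p6.

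Genes were filtered with filterByExpr, scaled by TMM and tested with edgeR 4.0.16 (robust quasi-likelihood fit, R 4.3.3), using a group mean model of all 18 libraries. P-values were adjusted by Benjamini and Hochberg within each comparison, with calls made below an adjusted p of 0.05. Standard errors are the log2 fold change divided by the square root of the F statistic. The biological coefficient of variation was 0.301. The procedure was also run on simulated counts, drawn independently for each library with the spread that the fit estimated. That run cannot show how the test behaves with correlated or unusually alike libraries. A group with 0 counts was set to 3 counts for a lower bound, and ratios on 1 to 3 counts have exact 95% intervals. Named genes are the 14 largest rises and falls whose groups did not overlap and whose higher group averaged 5 CPM or more, up to 4 members per list by p, and preset genes. The text adds the called members of small lists, chosen after their values were seen. The members and the 39 gene lists were chosen with earlier results of these data known. Alternatives used other scaling, filters, covariates, DESeq2 1.42.0, limma 3.58.1 on TPM, and left out each library. A few called list members are not reported here by name.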

Additional observations from a re-analysis of the deposited data

How the results depend on the processing

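Of 121 named genes called after IL4, 82 kept their call in all 18 alternatives of that comparison. The count of 903 calls became 1420 with DESeq2 (780 higher, 640 lower) and 543 with untreated 2 and 3 summed, and ranged from 540 to 826 when 1 wild type library was left out. With the other scalings, filters, covariates and limma fits it lay between 811 and 1017. Similar counts did not mean the same genes. Of the 903 genes, 900 were among the 942 called with RLE size factors. With the fibroblast marker level as covariate 680 were among the 828 called, and with limma on log2 TPM plus 1 666 among 911. A fit of only the libraries compared kept 766 among its 1017 calls. The difference from IFN gave 2040 to 2280 calls without 1 library. Leaving out 1 library labelled knockout, added after seeing the data, gave 592 to 1037 calls in place of 1058 in the knockout response. The interaction with genotype gave 0 calls in every alternative except DESeq2, which called 1. Genes that missed the threshold in the main fit and changed sign in an alternative were Col1a1, Stat6, Csf1r and Rpl13a. Col1a1 was at 0.013 with the fibroblast marker level, which contains it, as covariate. Without 1 library, Stat6 was at -0.24 to 0.010, Csf1r at -0.18 to 0.0089 and Rpl13a at -0.067 to 0.18. Rpl13a was also at -0.14 with limma on log2 TPM plus 1 or plus 0.1, and -0.027 on median-normalized TPM. The causes were not tested, beyond fewer libraries in the fits that leave libraries out or sum them. No paired analysis was possible because the wild type untreated, IL4 and IFN libraries share no number in the labels. The numbers are shared between genotypes, and with the number as a replicate block the interaction gave 0 calls. Same-numbered libraries of the 2 genotypes had correlated deviations from their group means (0.0417 to 0.597 over 9 pairs), and 8 of 9 correlated best with their own number, a hint from the data and not from the design. With 3 libraries per group, small changes and genes near 0 counts are measured with little precision.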
